A study of Homo sapiens with 6 samples.

Results

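The 78 protein-coding genes whose symbols begin with MRPL or MRPS and continue with a number were followed in Jurkat, a leukemic T-cell line of human origin. They comprise 49 MRPL and 29 MRPS genes, and they were picked by symbol alone from the 60856 features of the deposited tables. This family was chosen with earlier results of these data known. In the BPAF group, wild-type Jurkat cells were exposed to 1 µM bisphenol AF (BPAF), an analogue of bisphenol A that carries trifluoromethyl groups in place of the methyl groups of its bridge. In the DMSO group, wild-type Jurkat cells received the solvent dimethyl sulfoxide at 0.1%. Each group had 3 libraries of polyadenylated RNA, called biological replicates in the design text. The labels do not say whether these came from separate cultures, so p-values measure the spread between these libraries. The labels disagree on the length of exposure, which is 12 h in the treatment label and 24 h in the treatment protocol. One cell line in culture, at a single dose, is the whole of the model.

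Mitochondria carry their own ribosomes, which translate the mRNAs of the mitochondrial genome into subunits of the respiratory chain and of ATP synthase. The 2 rRNAs of these mitoribosomes are transcribed inside the organelle, whereas their proteins are encoded in the nucleus, made on cytosolic ribosomes and imported. Many of these proteins descend from bacterial ribosomal proteins, and others were added during the evolution of mitochondria. The promoters of nuclear genes for mitochondrial proteins often hold sites for the factors NRF1, GABP (an ETS family factor) and YY1. In proliferating T cells, mitochondrial translation supplies the respiratory chain of newly made mitochondria.

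Every one of the 78 genes had enough counts to be tested, with mean counts per library between 364.5 and 4876. Transcripts of 18 genes (23.1%) fell in BPAF libraries at an adjusted p under 0.05 (edgeR quasi-likelihood test, Benjamini-Hochberg over 15490 genes), where 3.4% of all tested genes fell. One gene, MRPS25, rose, where 2.65% of all tested genes rose. The changes were small, lying between -17.8% and -10.4% for the 18 genes that fell and at 9.99% for MRPS25. The log2 fold change was below 0 for 73 of the 78 genes, against 49.2% of all tested genes and 54.2% of the protein-coding ones. Its median was -0.10 (a change of -6.94%), where the median was 0.00 for all tested genes and -0.01 for the protein-coding ones. Of the 12335 protein-coding genes tested, 4.14% fell. Since the RNA came from bulk cultures, fewer cells that express a gene and less RNA per cell cannot be told apart.

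**Figure D1:**
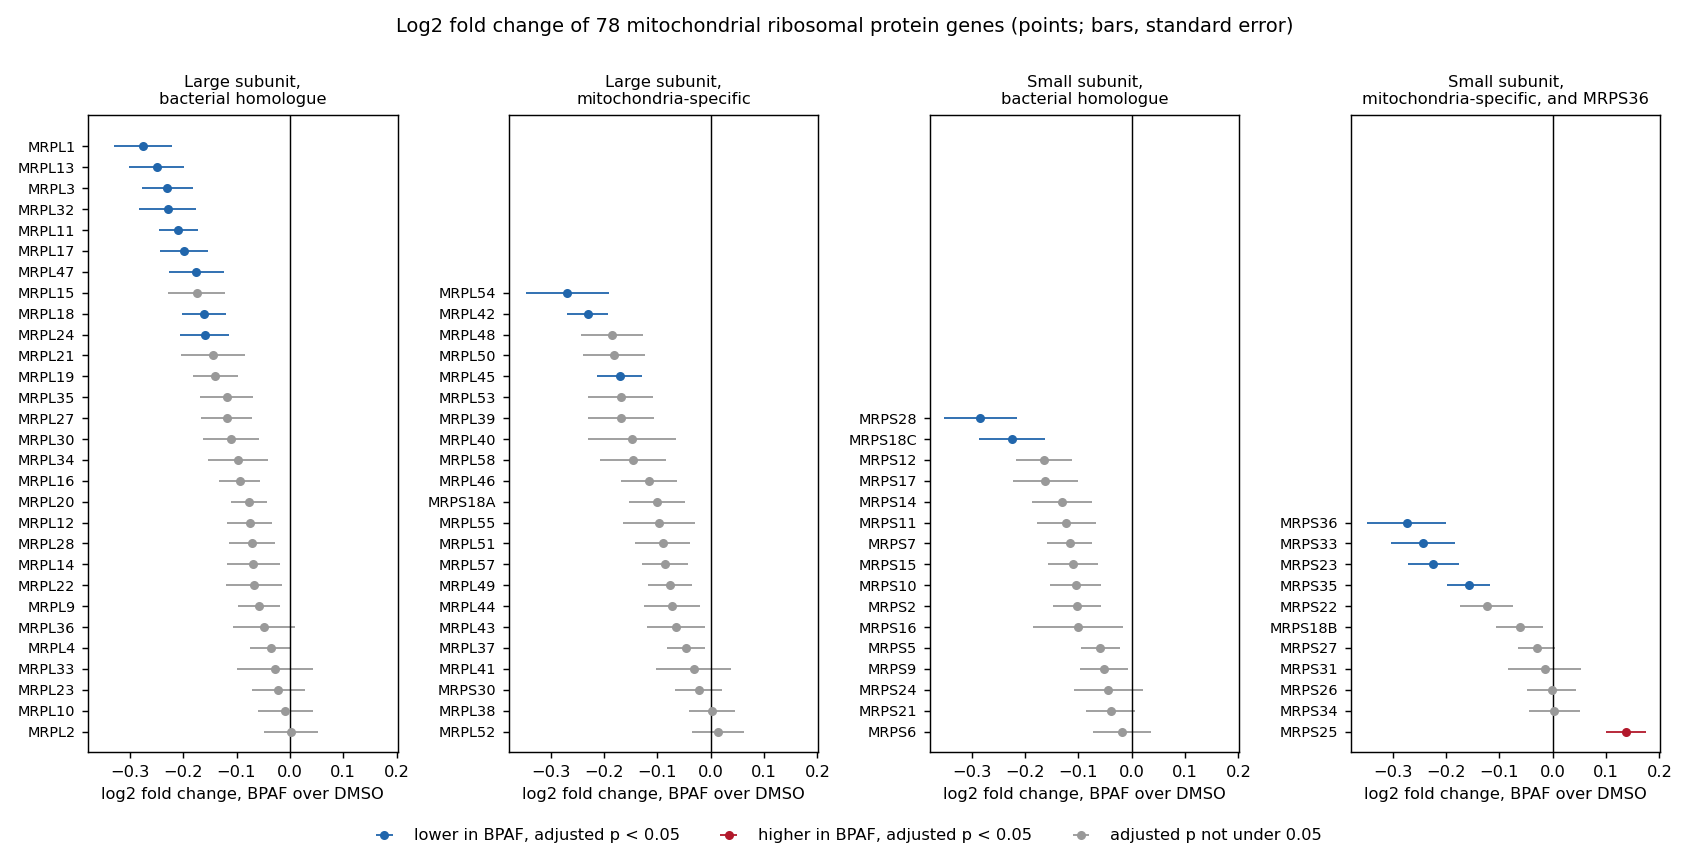
Log2 fold change of BPAF over DMSO (horizontal axis; bars, standard error) for each of the 78 genes, in panels by subunit and ancestry. Points for 73 genes lie left of 0, 18 of them past the threshold (blue), and MRPS25 alone is past it on the right (red).

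The number of falls depended on single libraries, while the median of the 78 genes stayed below 0 in each of these fits. Without BPAF replicate 1, BPAF replicate 3 or DMSO replicate 1, 7 genes were called lower in each case, and 9 were without DMSO replicate 3. Calls over all tested genes dropped as well, from 527 lower with all libraries. They were 175, 227 and 270 without BPAF replicate 1, BPAF replicate 3 and DMSO replicate 1, and 353 without DMSO replicate 3. Of the 78 genes, 15 were called lower without BPAF replicate 2 and 19 without DMSO replicate 2, beside 384 and 541 of all tested genes. DESeq2 without independent filtering called 9 of the 78 lower, beside 374 of all tested genes. The median log2 fold change lay between -0.12 and -0.09 in the 6 fits that left out a library. The genes MRPL42, MRPL11, MRPL1 and MRPL13 were called lower in all 6 of them.

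Library by library, the 78 genes lay in the median below their DMSO mean in each BPAF sample, and also in DMSO replicate 2. Relative to the DMSO mean of each gene, the median deviation over the 78 genes was -0.10, -0.07 and -0.14 on the log2 scale in BPAF replicates 1, 2 and 3, against 0.00, -0.04 and 0.03 in DMSO replicates 1, 2 and 3 (pooled SD within groups 0.033). The groups did not overlap in this value, although BPAF replicate 2 and DMSO replicate 2 lay close together. By count, 72, 62 and 73 of the 78 genes were below their DMSO mean in BPAF replicates 1, 2 and 3. In DMSO replicates 1, 2 and 3 the counts were 39, 63 and 24, so the groups overlapped by this count. Each DMSO library is part of the mean it is set against. All 3 BPAF libraries were below all 3 DMSO libraries in CPM (counts relative to a library's total, adjusted by TMM) for 41 genes (52.6%). This order was found for 12.8% of all tested genes and 15.3% of the protein-coding ones. The reverse order was found for MRPS25 alone among the 78, against 12.0% of all tested genes.

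Summed over the 78 genes, transcripts made up 0.483%, 0.489% and 0.474% of counts in BPAF libraries, against 0.509%, 0.495% and 0.515% in DMSO libraries. The groups did not overlap, with means of 0.482% ± 0.00717 in BPAF and 0.506% ± 0.0104 in DMSO (SD, n = 3 each), a ratio of 0.952. Mitochondrially encoded genes took 3.00% ± 0.0125 of counts in BPAF and 3.16% ± 0.184 in DMSO (SD, n = 3 each). With those genes left out of the total, the ratio was 0.950.

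The 6 libraries held 20253656 to 22617613 counts. All 10 T-cell markers examined were detected, with a summed TPM (abundance scaled for transcript length and library total) of 3271 to 3355 in BPAF libraries and 3130 to 3297 in DMSO libraries. Of the markers of other cell types, EPCAM, KRT19, CDH1 (epithelial), COL3A1, DCN, LUM (fibroblast), NCR1, KLRF1 (natural killer) and HBG1 (erythroid) were at 0 in all libraries. The B-cell list summed to 28.8 to 32.2 TPM in BPAF and 29.7 to 32.1 TPM in DMSO libraries, and the myeloid, natural killer, epithelial and fibroblast lists to at most 5.08 TPM in BPAF and 2.51 TPM in DMSO. The 6 erythroid markers together gave 92.9 to 128 TPM in BPAF and 113 to 119 TPM in DMSO libraries. All 10 T-cell markers had enough counts to be tested. So had 2 of 6 B-cell, 2 of 5 natural killer, 3 of 6 erythroid, 1 of 5 epithelial, 1 of 6 fibroblast and 0 of 6 myeloid markers. The other markers were not tested. No tested gene of these lists was called changed by edgeR, and 1 T-cell and 1 natural killer marker had an unadjusted p under 0.05 (DESeq2 and limma-voom also called 0).

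Promoter sequence was compared between the 78 genes and all genes, since the factors that bind these promoters are known. RefSeq promoters of GRCh38.p14 (250 bases before to 50 after the start) were matched for 69 of the 78 genes. Promoters were not matched for MRPL2, MRPL10, MRPL13, MRPL15, MRPL21, MRPL23, MRPL35, MRPS28 and MRPS36. Both strands were searched for exact letters, and a match is a description of the sequence. The YY1 core ATGGCGGC was found in 19 promoters (27.5%), against 3.21% of all 27305 promoters and 4.6% of the 15301 promoters of protein-coding genes. It followed the start in 17 of them and covered an annotated start codon in 16. The ETS core CCGGAAGT was in 11 promoters (15.9%, against 4.44% of all and 6.31% of protein-coding promoters). The NRF1 core GCGCATGCG was in 3 (4.35%, against 2.1% and 2.73%) and the TATA box letters TATAAA in 2 (2.9%, against 12.0% and 9.59%). The TATAAA matches lay at positions -165 (MRPS15, other strand) and -248 (MRPL54) from the start.

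The windows below are those of the genes past the threshold that hold a motif, with MRPL22 as the third NRF1 match; each is 30 bases long, on the strand of the gene, with the match in capitals (GCCGCCAT is the YY1 core read on the other strand).
MRPL17, NRF1, chr11:6683402-6683431, minus strand: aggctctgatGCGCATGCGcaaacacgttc
MRPL17, NRF1, chr11:6683364-6683393, minus strand: ccgagctaagGCGCATGCGttccctgaaat
MRPS18C, NRF1, chr4:83455912-83455941, plus strand: gaaaggtgctGCGCATGCGtattgaaaaac
MRPL22, NRF1, chr5:154941039-154941068, plus strand: ccagagtattGCGCATGCGtgctgtccaga
MRPL3, ETS, chr3:131502985-131503014, minus strand: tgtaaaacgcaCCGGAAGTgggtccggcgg
MRPL47, ETS, chr3:179604659-179604688, minus strand: ggcttgagacgCCGGAAGTgacgctatcgt
MRPL1, YY1 over the start codon, chr4:77862838-77862867, plus strand: gagtgcccaacATGGCGGCggccgtaaggt
MRPS35, YY1 over the start codon, chr12:27710833-27710862, plus strand: tcctcgcagccATGGCGGCcgccgcgctcc
MRPL47, YY1 on the other strand, chr3:179604805-179604834, minus strand: acaaactcatgGCCGCCATggctactacgg
MRPL54, TATA, chr19:3762432-3762461, plus strand: caTATAAAgtgtgatatttttagtaaatgt

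MRPL17 held a further match in the first window, where the palindromic letters can also be read on the other strand one base along. MRPL42 had the smallest p of the 78 genes and MRPS25 was the gene that rose, and neither promoter held any of the 4 motifs. Their 60 bases before the RefSeq start, with a GC content of 70.0% for MRPL42 and 71.7% for MRPS25, are shown for that reason.
MRPL42, chr12:93467454-93467513, plus strand: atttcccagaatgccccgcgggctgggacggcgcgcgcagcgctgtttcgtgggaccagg
MRPS25, chr3:15065316-15065375, minus strand: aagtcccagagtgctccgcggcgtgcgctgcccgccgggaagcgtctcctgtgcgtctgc

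Log2 fold changes were set beside the motifs. Genes with the YY1 core had a median of -0.11 and included 3 of 19 called lower, and those without it had a median of -0.10 and 12 of 50 called lower. With the ETS core the median was -0.09 (2 of 11 called lower), and without it -0.10 (13 of 58). The 3 genes with the NRF1 core had a median of -0.20 and 2 called lower, MRPL17 and MRPS18C. The 2 genes with TATAAA had a median of -0.19 and 1 called lower, MRPL54. Those without it had a median of -0.10 and 14 of 67 called lower. Of all tested genes, 3.4% were called lower. These differences were not tested.

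The large subunit holds the peptidyl transferase centre, the stalk that recruits translation factors, the central protuberance and the tunnel through which the new chain leaves. By structure, 51 of the 78 proteins belong to it, among them MRPS30 and MRPS18A despite their symbols. Transcripts of 12 of the 51 fell (23.5%, against 23.1% of the 78 genes and 3.4% of all tested genes). The median log2 fold change of the 51 was -0.10. Among the 29 listed with a bacterial homologue, 9 fell (median -0.11), and among the 22 listed as specific to mitochondria 3 fell (median -0.10). Whether these shares differ was not tested.

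MRPL42 (ENSG00000198015, chr12:93467488-93516213, plus strand) encodes a mitochondria-specific protein of the large subunit. It stood at 96.8, 97.7 and 95.8 CPM in BPAF libraries, against 111, 110 and 119 CPM in DMSO libraries. The BPAF libraries lay within a narrow band below every DMSO library. The log2 fold change was -0.23 with a standard error (SE) of 0.038 and an adjusted p of 0.00156 (edgeR).

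MRPL1 (ENSG00000169288, chr4:77862520-77952790, plus strand) encodes the protein of the mobile L1 stalk, beside the site where deacylated tRNA leaves. It had 37.6, 39.9 and 37.4 CPM in BPAF libraries and 45.5, 44.5 and 49.1 CPM in DMSO libraries. The groups did not overlap, and the log2 fold change (-0.28, SE 0.055, edgeR adjusted p = 0.00515) was the lowest of the large subunit. MRPL13 (ENSG00000172172, chr8:120380761-120445402, minus strand), the counterpart of a bacterial protein that enters the subunit early in assembly, had 55.5, 52.0 and 51.4 CPM in BPAF against 64.4, 58.6 and 65.8 CPM in DMSO. Again the groups were apart, at -0.25 on the log2 scale (SE 0.052, edgeR adjusted p = 0.00675).

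MRPL3, a core protein that reaches towards the peptidyl transferase centre, was the most abundant of the genes that fell, by CPM and by TPM. It had 206, 219 and 208 CPM in BPAF libraries, against 242, 232 and 268 CPM in DMSO libraries, with DMSO replicate 3 high. The log2 fold change was -0.23 (SE 0.048, edgeR adjusted p = 0.0186), and it was called in 4 of the 6 fits that left out a library. MRPL32, whose precursor is cut by the m-AAA protease before it joins the ribosome in yeast and mouse, had 57.7, 60.4 and 54.5 CPM in BPAF against 66.1, 63.4 and 72.7 CPM in DMSO. Its log2 fold change was -0.23 (SE 0.054, edgeR adjusted p = 0.0157), called in 2 of those 6 fits.

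The stalk and its base comprise 5 of the proteins, encoded by MRPL10, MRPL11, MRPL12, MRPL53 and MRPL54. Of these transcripts 2 fell (40.0%, against 23.1% of the 78 genes and 3.4% of all tested genes), a difference that was not tested. DESeq2 without independent filtering called 1 of the 5 lower. MRPL11 (ENSG00000174547, chr11:66435075-66466738, minus strand), which binds the rRNA at the base of the stalk, had 107, 105 and 102 CPM in BPAF libraries, against 120, 118 and 124 CPM in DMSO libraries. Each BPAF library was lower than each DMSO library, and the log2 fold change was -0.21 (SE 0.036, edgeR adjusted p = 0.00222). MRPL54 had the lowest CPM of the genes past the threshold, with 14.6, 15.9 and 16.0 CPM in BPAF against 18.9, 18.4 and 18.9 CPM in DMSO. Its log2 fold change was -0.27 (SE 0.077, edgeR adjusted p = 0.0431), and it lost the call in each of the 6 fits that left out a library, with adjusted p between 0.0656 and 0.196.

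Around the tunnel exit, where the new protein meets the inner membrane, 4 of 6 transcripts fell, MRPL17, MRPL24, MRPL45 and MRPL47. That is 66.7%, against 23.1% of the 78 genes and 3.4% of all tested genes, and the difference was not tested. DESeq2 without independent filtering called 1 of the 6 lower. MRPL45 anchors the ribosome to the membrane, and it had 68.8, 66.7 and 64.5 CPM in BPAF libraries, against 74.1, 74.8 and 76.2 CPM in DMSO libraries (log2 fold change -0.17, SE 0.042, edgeR adjusted p = 0.0206). MRPL17 had 58.9, 56.0 and 56.0 CPM in BPAF, against 66.9, 64.7 and 64.4 CPM in DMSO (log2 fold change -0.20, SE 0.045, edgeR adjusted p = 0.0121). For both genes the groups were apart. MRPL47 was the one called gene whose groups overlapped, since BPAF replicate 3 at 65.3 CPM exceeded DMSO replicate 2 at 64.6 CPM. Its log2 fold change was -0.18 (SE 0.052, edgeR adjusted p = 0.0485). MRPL24 had 78.4, 75.7 and 72.3 CPM in BPAF, against 87.5, 79.5 and 85.8 CPM in DMSO, without overlap (log2 fold change -0.16, edgeR adjusted p = 0.0414). These calls were kept in 4 (MRPL17), 3 (MRPL45), 2 (MRPL47) and 1 (MRPL24) of the 6 fits that left out a library.

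The central protuberance, where human mitoribosomes hold a mitochondrial tRNA in place of the bacterial 5S rRNA, is represented by 8 genes. Of these MRPL18 fell (12.5%, against 23.1% of the 78 genes and 3.4% of all tested genes). MRPL18 had 75.4, 78.2 and 73.9 CPM in BPAF libraries and 87.2, 82.8 and 84.1 CPM in DMSO libraries. Its groups did not overlap (log2 fold change -0.16, SE 0.041, edgeR adjusted p = 0.0238, called in 3 of 6 fits with a library left out). MRPL52 of the same region had 67.3, 68.8 and 65.0 CPM in BPAF, against 71.0, 62.5 and 65.6 CPM in DMSO. These overlapped (log2 fold change 0.01, edgeR adjusted p = 0.922), and it was the second largest value above 0 of the 78 genes, with a sign that turned when BPAF replicate 2 or DMSO replicate 2 was left out.

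**Figure D2:**
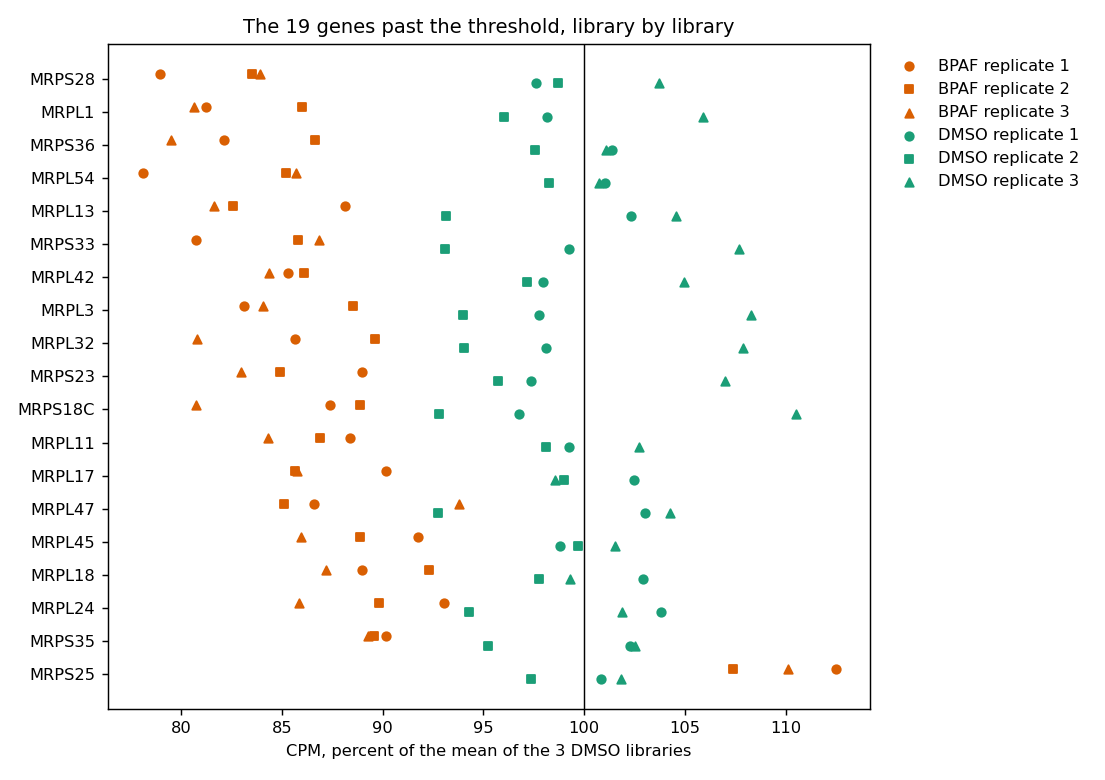
CPM of the 19 genes past the threshold in each library, as a percentage of the mean of the 3 DMSO libraries (horizontal axis; orange, BPAF; green, DMSO; marker shape, replicate number). BPAF libraries lie left of DMSO libraries without overlap for 17 of the 18 genes that fell, MRPL47 being the exception, and right of them for MRPS25.

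The small subunit reads the mRNA and holds 26 of the proteins by structure. Transcripts of 5 fell (19.2%, against 23.1% of the 78 genes and 3.4% of all tested genes) and 1 rose, with a median log2 fold change of -0.10. The 16 genes listed with a bacterial homologue included MRPS28 and MRPS18C as falls and had a median of -0.11. The 10 genes listed as mitochondria-specific included MRPS23, MRPS33 and MRPS35 as falls and MRPS25 as the rise, with a median of -0.05.

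MRPS23 (ENSG00000181610, chr17:57834781-57850056, minus strand) had 70.1, 66.9 and 65.3 CPM in BPAF libraries, against 76.7, 75.4 and 84.2 CPM in DMSO libraries. The groups were apart, at -0.22 on the log2 scale (SE 0.048, edgeR adjusted p = 0.00805), and the call was kept in 5 of the 6 fits that left out a library. MRPS28, placed by structure as the counterpart of bacterial S1, had the lowest log2 fold change of the 78, -0.28 (SE 0.068, edgeR adjusted p = 0.0173). It had 19.1, 20.2 and 20.3 CPM in BPAF, against 23.6, 23.9 and 25.1 CPM in DMSO, without overlap.

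MRPS33 in the head of the subunit had 33.5, 35.6 and 36.1 CPM in BPAF libraries and 41.2, 38.7 and 44.7 CPM in DMSO libraries (log2 fold change -0.24, SE 0.060, edgeR adjusted p = 0.0193). MRPS35 had 81.5, 81.0 and 80.7 CPM in BPAF against 92.5, 86.1 and 92.7 CPM in DMSO (log2 fold change -0.16, SE 0.041, edgeR adjusted p = 0.0249). Neither gene had overlapping groups, and the BPAF libraries of MRPS35 were nearly equal. MRPS18C is one of 3 paralogues that share an ancestor in bacterial S18, of which MRPS18A sits in the large subunit and MRPS18B in the small one. The lists used here place MRPS18A and MRPS18B among the mitochondria-specific proteins despite that ancestry. MRPS18C had 46.6, 47.4 and 43.1 CPM in BPAF against 51.6, 49.5 and 59.0 CPM in DMSO (log2 fold change -0.22, SE 0.062, edgeR adjusted p = 0.0399). Of the fits with a library left out, 4 of 6 kept the call for MRPS28, 3 for MRPS33, and 1 each for MRPS35 and MRPS18C.

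MRPS25 (ENSG00000131368, chr3:15042460-15065335, minus strand), a mitochondria-specific protein of the small subunit, went the other way. It had 102, 97.3 and 99.8 CPM in BPAF libraries, against 91.4, 88.2 and 92.2 CPM in DMSO libraries, without overlap. The log2 fold change was 0.14 (SE 0.038, edgeR adjusted p = 0.0364). The call was kept in 1 of the 6 fits that left out a library, the one without BPAF replicate 2, and adjusted p in the 6 lay between 0.0437 and 0.181. DESeq2 without independent filtering gave an adjusted p of 0.0975. On the deposited TPM scale MRPS25 had 80.1, 95.9 and 73.1 TPM in BPAF libraries and 72.3, 89.5 and 69.9 TPM in DMSO libraries, which overlapped. The gene also overlaps NR2C2 on the opposite strand, and no source used here states whether counting used strand, so the part of NR2C2 reads in its counts was not tested. The third largest value above 0, that of MRPS34, was 0.00 (edgeR adjusted p = 0.985), with a sign that turned in 4 alternative fits.

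MRPS36 keeps its ribosomal symbol here, but its protein is a subunit of the oxoglutarate dehydrogenase complex of the citric acid cycle, and RefSeq now names the gene KGD4. It had 16.8, 17.8 and 16.3 CPM in BPAF libraries, against 20.8, 19.99 and 20.7 CPM in DMSO libraries. The groups were apart (log2 fold change -0.27, SE 0.074, edgeR adjusted p = 0.0314, called in 2 of 6 fits with a library left out). Without it, 17 of 77 genes of the mitoribosome fell.

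Of the 59 genes that did not pass the threshold, 55 had a log2 fold change below 0. The share over all tested genes, called or not, was 49.2%. Counting those past it, 41 genes had an unadjusted p under 0.05 with a value below 0, and MRPS25 was the gene with such a p above 0. Over all 15490 tested genes, 1626 had such a p with a value below 0 and 1450 with a value above 0. For single genes, the median coefficient of variation was 3.38% among BPAF and 3.81% among DMSO libraries.

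**Figure D3:**
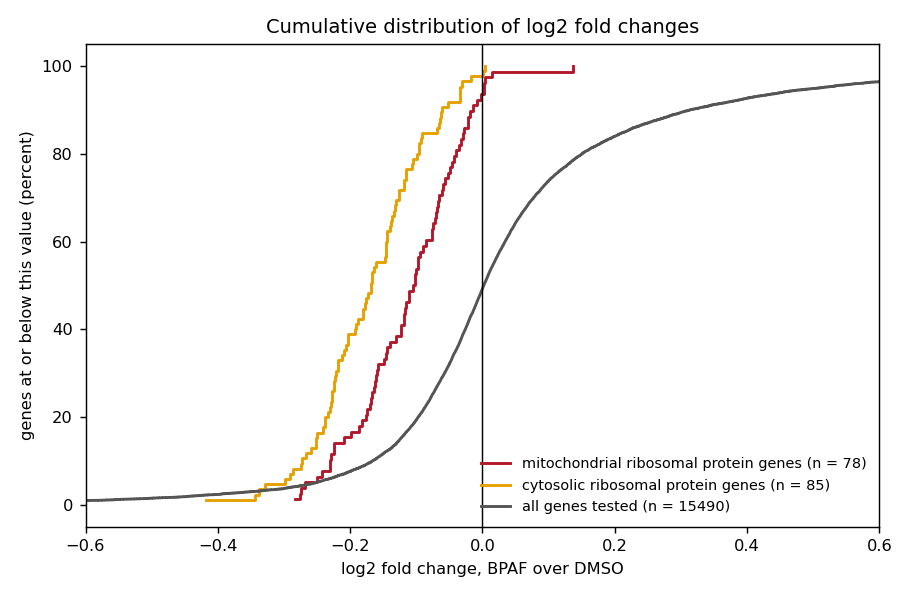
Cumulative share of genes (vertical axis, percent) at or below each log2 fold change of BPAF over DMSO (horizontal axis) for the 78 mitochondrial ribosomal protein genes, 85 cytosolic ribosomal protein genes and the 15490 genes tested. The curve of the 78 genes crosses 50% at -0.10, between those of cytosolic ribosomal protein genes at -0.17 and of all genes at 0.00.

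Genes for cytosolic ribosomal proteins, which build the ribosomes that make the mitochondrial ones, are the nearest comparison. Of 85 tested, 41 fell (48.2%, against 3.4% of all tested genes). Log2 fold changes of 83 were below 0 (97.6%, against 49.2% of all tested genes), with a median of -0.17. No test of the difference between the 2 families was made.

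Levels between genes were compared in TPM. The mean over the 6 libraries had a median of 87.2 TPM, and 62 of the 78 genes lay between 50 and 200 TPM. The highest was MRPL20, a protein that binds the large rRNA, with 421, 413 and 411 TPM in BPAF libraries and 431, 430 and 406 TPM in DMSO libraries. It was followed by MRPL51, with 247 ± 13.4 TPM in BPAF and 252 ± 2.29 TPM in DMSO, and MRPS24, with 238 ± 16.4 TPM in BPAF and 234 ± 11.0 TPM in DMSO (SD, n = 3 each). MRPL20 stood above both in every library. MRPL51 also stood above MRPS24 within every library, although the ranges of these genes over all libraries overlapped. None of the 3 passed the threshold.

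The lowest was MRPL50, with 15.0, 15.0 and 13.9 TPM in BPAF libraries and 15.7, 16.3 and 14.8 TPM in DMSO libraries, 27.7 times below MRPL20 in the mean. MRPL30 had 22.4 ± 2.51 TPM in BPAF and 19.9 ± 2.98 TPM in DMSO, and MRPS31 had 26.8 ± 1.61 TPM in BPAF and 26.4 ± 0.391 TPM in DMSO (SD, n = 3 each). MRPL50 lay below both other genes in every library. MRPL30 was below MRPS31 within every library, although their ranges overlapped when libraries of both groups were pooled. MRPL30 was higher in BPAF by mean TPM and lower by CPM (log2 fold change -0.11, edgeR adjusted p = 0.243), so its direction depended on the unit.

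**Figure D4:**
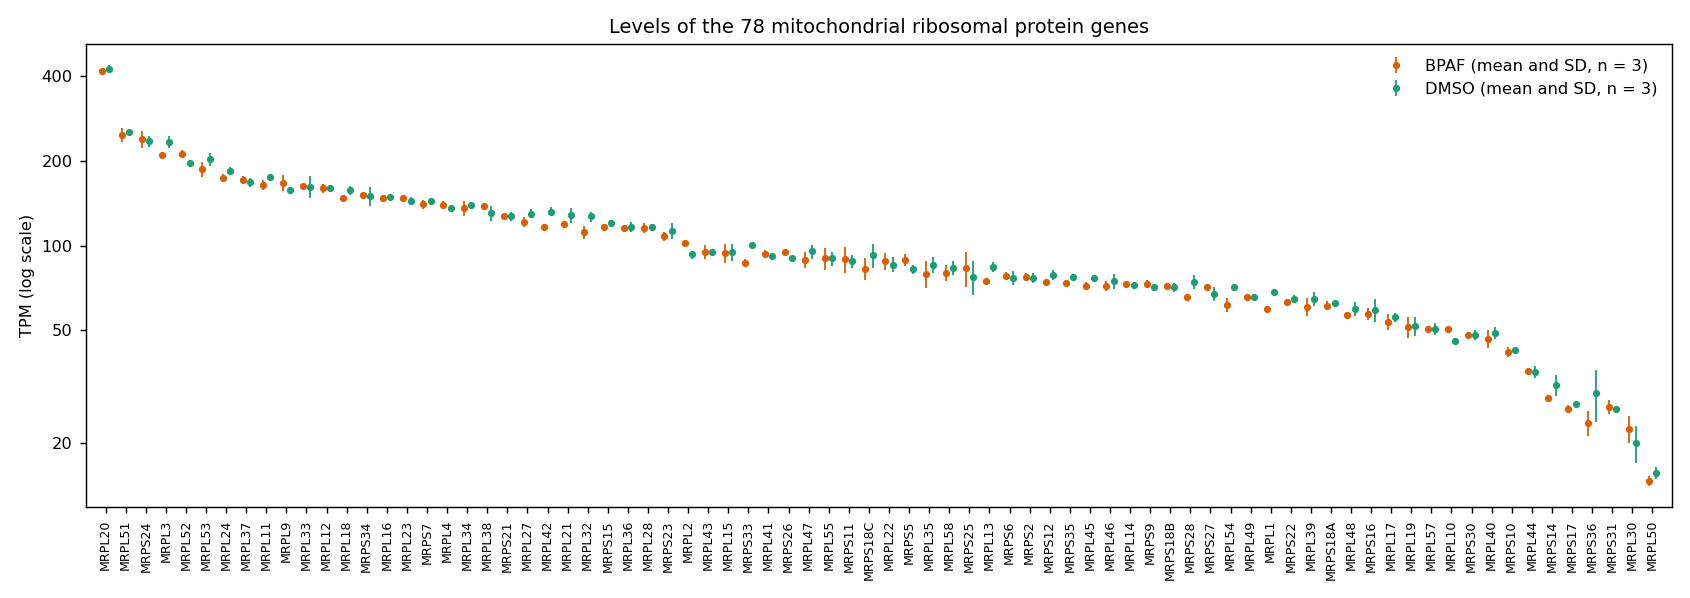
Mean TPM with SD (vertical axis, log scale) of the 78 genes in BPAF (orange) and DMSO (green) libraries, n = 3 each, ordered by mean level. Most genes lie between 50 and 200 TPM, with MRPL20 at 419 TPM and MRPL50 at 15.1 TPM at the ends.

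On the TPM scale the shift of the family was smaller against 0 and similar against the other genes. The median log2 fold change of log2(TPM + 1) was -0.02 for the 78 genes, of which 47 were below 0, and 0.08 for all tested genes. The sign was below 0 in CPM and above 0 in TPM for 26 of the 78 genes, none of them among the 19 past the threshold. The difference between these medians, -0.10, was -0.11 in CPM. With limma on that scale, 0 of the 78 passed the threshold, 12 had an unadjusted p under 0.05, and 0 of all genes were called lower, where 2705 had an unadjusted p under 0.05. Summed over the 78 genes, BPAF libraries held 7892, 8058 and 7822 TPM, against 8145, 8092 and 8044 TPM in DMSO libraries. The groups overlapped at BPAF replicate 2 and DMSO replicate 3.

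Split by subunit, large-subunit genes summed to 5666 ± 68.6 TPM in BPAF and 5800 ± 44.3 TPM in DMSO (SD, n = 3 each), without overlap. Small-subunit genes summed to 2235 ± 50.4 TPM in BPAF and 2264 ± 4.04 TPM in DMSO (SD, n = 3 each), with overlap. The ratio of large to small was 2.54 ± 0.0252 in BPAF and 2.56 ± 0.0208 in DMSO (SD, n = 3 each), which overlapped too.

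The GC content of transcripts moved with the size of the change. The GC content of the longest annotated transcript ran from 33.5% to 71.9% over the 78 genes. The 39 with the lower GC content included 13 falls and a median log2 fold change of -0.13, and the other 39 included 5 falls and a median of -0.08. The same direction held over all tested genes: 5.44% fell among those at or below 47.6% GC and 1.74% among those above it. Spearman's rho of log2 fold change with GC content was 0.41 over the 78 genes and 0.16 over 15122 genes, as a description across genes that share the same 6 libraries. With mean CPM in place of GC content, rho was 0.18 over the 78 genes and -0.24 over the 15122 genes. When the fit carried an offset for transcript length and GC, the medians were -0.11 for the 39 genes of lower GC content and -0.12 for the others. In that fit 20 of the 78 genes fell, beside 467 of all 15122 genes.

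**Figure D5:**
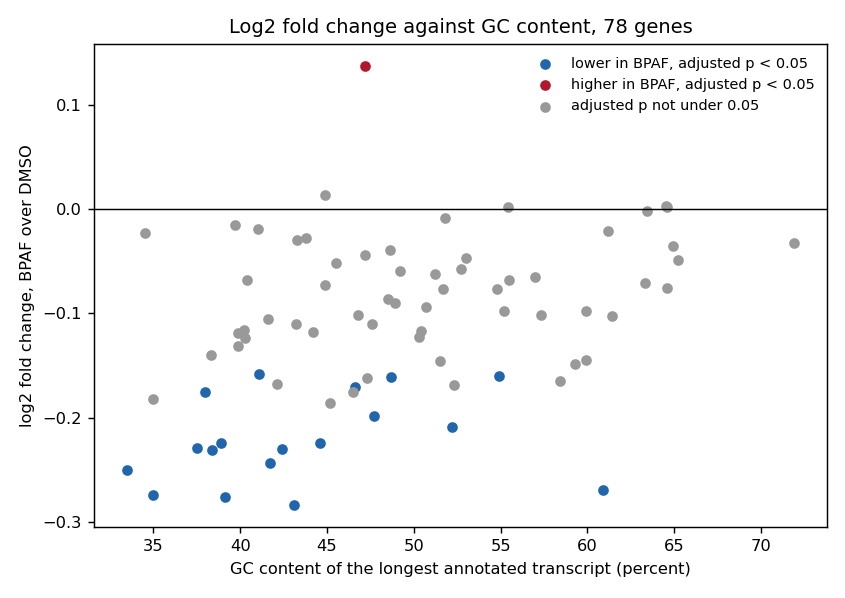
Log2 fold change of BPAF over DMSO (vertical axis) against the GC content of the longest annotated transcript (horizontal axis, percent), 1 point per gene. Genes past the threshold (blue, lower; red, higher) lie mostly at low GC content, 13 of the 18 falls being among the 39 genes of lower GC content.

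Counting could also bear on single genes. Deposited counts were whole numbers in all 6 libraries for 28 of the 78 genes, of which 10 fell (median log2 fold change -0.15). For the other 50 genes, some counts were not whole, and 8 fell (median -0.10). The tables listed 79 MRP pseudogenes, and 36 of the 78 genes had at least 1. Adding their counts to those of the parent genes, an alternative chosen after seeing the data, kept all 19 calls. An annotated gene overlapped 38 of the 78 genes on the opposite strand, and for those reads of the partner cannot be told apart without the strand setting. An annotated gene overlapped 23 of the 78 on the same strand, MRPL42 and MRPL3 among them, where strand would not separate the reads.

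The genes lie on 21 chromosomes, with at most 8 on one, a number reached on chromosomes 1, 2 and 17. Starts of 19 of them lay within 1000 bases of that of a protein-coding gene on the other strand, in 20 pairs by GENCODE gene ends. Of these 19 genes 6 fell, where 23.1% of the 78 genes fell, and the difference was not tested. Among the 20 partners, 1 fell and 0 rose, where 3.4% of all tested genes fell and 2.65% rose. The 1 that fell was PSMA2, a gene for a proteasome subunit that overlaps MRPL32 by its first bases. PSMA2 had 111, 112 and 108 CPM in BPAF libraries, against 126, 119 and 139 CPM in DMSO libraries (log2 fold change -0.21, SE 0.046, edgeR adjusted p = 0.0126). MRPS11 and MRPL46, named here for their position after values were seen, start 34 bases apart, with log2 fold changes of -0.12 each (edgeR adjusted p = 0.217 and 0.221).

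Other parts of the mitochondrial translation machinery were read from the same fit. The 5 mitoribosomal proteins that carry other symbols (DAP3, PTCD3, AURKAIP1, CHCHD1 and GADD45GIP1) gave 0 calls by edgeR, 0 unadjusted p under 0.05, and 0 calls by DESeq2 or limma-voom. The smallest p of these was that of DAP3, a GTP-binding protein of the small subunit, with 178 ± 2.40 CPM in BPAF and 186 ± 3.64 CPM in DMSO (SD, n = 3 each; edgeR adjusted p = 0.295). Among 19 genes for translation factors and for proteins that handle mitochondrial mRNA 1 fell (5.26%, against 3.4% of all tested genes). It was SLIRP, an RNA-binding protein that stabilises mitochondrial mRNAs together with LRPPRC and is not itself a translation factor (log2 fold change -0.26, SE 0.058, edgeR adjusted p = 0.0125, called in 2 of 6 fits with a library left out). Among 17 mitochondrial aminoacyl-tRNA synthetases 1 fell (5.88%, against the same 3.4%), RARS2, which charges arginine tRNA (log2 fold change -0.30, SE 0.070, edgeR adjusted p = 0.0138, called in 4 of those 6 fits).

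Of 33 genes for mitoribosome assembly and rRNA modification, 1 fell (3.03%, against 3.4% of all tested genes) and 1 rose. With 1 call in each direction at most, the counts of these 3 lists were near the background. DDX28, a DEAD-box helicase needed to assemble the large subunit, had 40.2, 37.5 and 36.2 CPM in BPAF libraries, against 44.3, 48.1 and 45.6 CPM in DMSO libraries. The groups were apart (log2 fold change -0.28, SE 0.056, edgeR adjusted p = 0.00577), and the call was kept in all 6 fits that left out a library. SPG7, a subunit of the m-AAA protease that matures MRPL32, had 162, 155 and 172 CPM in BPAF, against 145, 150 and 148 CPM in DMSO (log2 fold change 0.14, SE 0.037, edgeR adjusted p = 0.026, called in 2 of those fits).

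Of 14 genes for transcription and maintenance of mitochondrial DNA, 2 fell (14.3%, against 3.4% of all tested genes) and 1 rose. TFAM, which packages mitochondrial DNA and activates its promoters, had 127, 127 and 120 CPM in BPAF libraries, against 144, 140 and 143 CPM in DMSO libraries (log2 fold change -0.19, SE 0.034, edgeR adjusted p = 0.0032). SSBP1, which binds single-stranded mitochondrial DNA, had 138, 139 and 139 CPM in BPAF, against 154, 152 and 160 CPM in DMSO (log2 fold change -0.17, SE 0.032, edgeR adjusted p = 0.00438). Both were called in all 6 fits that left out a library, and neither overlapped between groups. POLG2, the accessory subunit of the mitochondrial DNA polymerase, rose (log2 fold change 0.19, SE 0.047, edgeR adjusted p = 0.0208, called in 2 of those fits).

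Of 14 regulators of nuclear genes for mitochondria, 12 could be tested. Of these 2 fell (16.7%, against 3.4% of all tested genes) and 1 rose, where 2.65% of all tested genes rose. TFAM is 1 of the 2 that fell and is counted in the list before as well. GABPA, the DNA-binding subunit of the ETS factor GABP, had 86.9, 84.4 and 84.2 CPM in BPAF libraries, against 93.7, 95.6 and 96.1 CPM in DMSO libraries. It fell without overlap (log2 fold change -0.16, SE 0.038, edgeR adjusted p = 0.0161, called in 5 of 6 fits with a library left out). PPRC1, a coactivator that works with NRF1, rose (log2 fold change 0.11, SE 0.032, edgeR adjusted p = 0.0473), was called in 1 of those fits, and had an adjusted p of 0.111 in DESeq2 without independent filtering.

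The RNA partners of these proteins come from the mitochondrial genome. MT-RNR2, the rRNA of the large subunit, had 1757, 1666 and 1880 CPM in BPAF libraries, against 2266, 2187 and 2672 CPM in DMSO libraries. MT-RNR1, that of the small subunit, had 1160, 1095 and 1225 CPM in BPAF, against 1474, 1380 and 1693 CPM in DMSO. Every BPAF library was below every DMSO library for both, but neither passed the threshold in edgeR (log2 fold change -0.43, SE 0.098, adjusted p = 0.0983 for MT-RNR2, and -0.39, SE 0.094, adjusted p = 0.11 for MT-RNR1). DESeq2 without independent filtering gave adjusted p of 0.00339 and 0.00683, and limma-voom 0.115 and 0.13. Libraries were made by selection of polyadenylated RNA, so rRNA levels also depend on that step, whose part was not tested. Of the 13 mRNAs that mitoribosomes translate, MT-ND5, a complex I subunit, fell (log2 fold change -0.17, SE 0.040, edgeR adjusted p = 0.0248, called in 2 of 6 fits with a library left out), with an adjusted p of 0.106 in limma-voom. That is 7.69% of the 13, against 3.4% of all tested genes, while DESeq2 without independent filtering called 3 of the 13 lower and limma-voom called 0.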

How the data were processed

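Polyadenylated RNA of 3 BPAF and 3 DMSO libraries was read in strand-specific, paired-end format, per the labels' protocols. Per the submitters' processing notes, FastQC, cutadapt, HISAT2 and featureCounts were among the tools and GRCh38 and hg38 the builds, with no versions stated. The authors deposited estimated counts per gene, some with decimals (tolerance for a whole count 1e-09), and TPM values. The steps behind the decimals and the TPM are not given in the sources used here. Gene symbols, classes, coordinates, exon lengths and GC content came from GENCODE 29 (GRCh38) and RefSeq names, matched by identifier.

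Counts were rounded, which gave 20253656 to 22617613 per library, passed through filterByExpr and given TMM factors. The robust quasi-likelihood test was that of edgeR 4.0.16 (R 4.3.3), without covariates. P-values were adjusted by Benjamini-Hochberg over 15490 genes (threshold 0.05). The biological coefficient of variation was 3.77%. The standard error was the log2 fold change divided by the square root of F. Levels within a gene are TMM-scaled CPM, and levels between genes are TPM. Alternatives were other filters, RLE or upper quartile scaling, limma-voom, DESeq2 1.42.0, limma 3.58.1 on log2(TPM + 1) or log2(TPM + 0.1), protein-coding or annotated genes alone, a length and GC offset, a block for the replicate number, members with whole counts alone, members summed with their pseudogenes, and omission of each library. Sums, motif searches and figures used Python 3.11.15 with numpy 2.4.6, pandas 2.3.3 and matplotlib 3.10.9.

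All pairs of libraries differed by more than sampling noise (2.37 to 7.77 chi-square units per degree of freedom). The genes and lists were chosen with earlier results of these data known. Named with values were the genes past the threshold, the 10 with the smallest p, the 3 largest values above 0, the 3 highest and 3 lowest by TPM, the called genes of each related list (or the one with the smallest p) and both mitochondrial rRNAs.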

Additional observations from a re-analysis of the deposited data

How the results depend on the processing

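The median log2 fold change of the 78 genes stayed below 0 in every alternative run. Minus the median of all tested genes it was -0.12 to -0.09, leaving aside the restriction to whole counts. RLE size factors, no filter beyond a count above 0, annotated genes alone and the sum with pseudogenes (chosen after seeing the data) kept all 19 calls. Upper quartile scaling gave 14 lower and 1 higher among the 78 and split all genes into 400 lower and 461 higher, against 527 and 411 with TMM. Protein-coding genes alone also gave 14 and 1, beside 386 and 280 of the 12335 genes tested. The offset for length and GC content gave 20 and 1, beside 467 and 417 of 15122 genes.

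DESeq2 with its own filter called 12 of the 78 lower and 0 higher, and without independent filtering 9 and 0, with 28 of the 78 at an unadjusted p under 0.05. Over all genes it called 404 and 374 lower and 268 and 257 higher. On log2(TPM + 1) and log2(TPM + 0.1), limma called 0 and 0 of the 78 lower, 0 and 0 higher, 0 and 0 of all genes lower, and 1 and 2 of all genes higher, while 12 of the 78 and 2705 and 2675 of all genes had an unadjusted p under 0.05. Medians were then -0.0243 and -0.0246 for the 78 genes, -0.0242 and -0.0242 for MRPL, and -0.0245 and -0.0250 for MRPS genes. Members with whole counts alone gave 10 lower and a median of -0.1517.

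Leaving out 1 library gave 7 to 19 lower and 0 to 1 higher of the 78, 175 to 541 lower and 147 to 368 higher of all genes, and medians from -0.1206 to -0.0851 (78 genes), -0.1242 to -0.0983 (MRPL) and -0.1103 to -0.0788 (MRPS). The replicate numbers did not pair the libraries: correlations of deviations between same-numbered libraries were 0.00101, -0.0432 and 0.0143. With the replicate block, 17 of the 78 were lower and 1 higher, and 449 and 377 of all genes.

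On both TPM scales 26 of the 78 genes turned from below to above 0, and 0 of the 19 called ones did. Among the genes named with values, signs turned as follows. MRPL52 was -0.0058 without BPAF replicate 2 and -0.0305 without DMSO replicate 2, in a range up to 0.065 with 1 library left out. MRPS34 was -0.0004 without a filter, -0.0631 with the offset, -0.0256 without BPAF replicate 2 and -0.0532 without DMSO replicate 2, in a range up to 0.0335. On the TPM scales MRPL30 was 0.1667 and 0.1740, MRPS31 0.0208 and 0.0214, MRPS24 0.0198 and 0.0198, and DAP3 0.0503 and 0.0505. MRPS31 was also 0.0082 with the offset, 0.0334 without BPAF replicate 1 and 0.0037 without DMSO replicate 1, in a range down to -0.0511, and MRPS24 was 0.0004 without BPAF replicate 3 and 0.0126 without DMSO replicate 3, in a range down to -0.1103. For all of these the cause was not tested. Each gene had a mean count of at least 364.5, and the spread between 3 libraries per group limits which changes of this size are called.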
